A study of Arabidopsis thaliana with 28 samples.

Results

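The genes described here are 37 genes of Arabidopsis roots whose signal was higher at 1% oxygen than in normal air after 48 h and not, or only slightly, higher after 2 h. They were chosen among 13513 probe sets that name a single gene (13356 genes), on values log2(signal + 6). A member had a mean signal over all arrays of 25 or more and a log2 difference, 1% minus 21% oxygen at 48 h, of 0.6 or more within replicate letter A and within replicate letter F. Its difference of group means at 2 h was under 0.4, with no lower limit. Of the 7380 probe sets with a mean signal of 25 or more, 434 reached 0.6 in letter A, 672 in letter F and 65 in both, and 28 of these 65 were left out by their 2 h difference. The values at 1% and in air at 48 h and at 2 h therefore chose the members, and for the members they are given below as a description with no test. Genes of the pathway lists that are not members were tested on these contrasts.

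Seedlings of Arabidopsis thaliana (ecotype given as col2, no transgene or mutation named in the labels) were moved after 10 days of growth into continuous darkness, where premixed air with 350 ppm CO2 flowed over their vertical agar plates. The groups were 1%, 4% and 8% oxygen and air with 21% oxygen as the control, each for 0.5, 2 and 48 h, and whole roots were harvested, so that all groups share the darkness and the 1% sucrose of the medium. Each of the 28 arrays is marked with 1 of the replicate letters A to G. The labels do not say whether arrays with the same letter share a culture, and p-values measure the spread between these arrays, which may be technical. At 48 h the arrays were A and F at 1%, B and F at 4%, and A, B and F at 8% and in air, and values below follow that order.

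When oxygen is scarce, mitochondrial respiration yields less ATP, and plant cells switch on a fast set of genes for fermentation and for sensing low oxygen. Making ribosomes and proteins is among the costliest activities of a cell, and the loading of messenger RNA on ribosomes is known to drop when plants run short of oxygen. Continuous darkness also stops photosynthesis, so roots depend on stored or supplied sugar, and genes of growth and protein synthesis are known to respond to the supply of sugar. The members include genes for ribosomal proteins and ribosome assembly, for enzymes that make amino acids, purines and glucosinolates, for mitochondrial proteins, for chaperones and for receptors at the cell surface.

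Expression was deposited as MAS5 signals on a linear scale, and the 2% trimmed mean of these signals came to 100 on every array. The number of arrays limits the precision of each value. The 3 arrays of letter B at 48 h stood apart, with highest signals of 11589 to 16530 against 3774 to 6389 on the other 25 arrays, and the 8% array among them is also called a control in its treatment text, although its title and stated level give 8%. Of the marker lists for root hair, xylem, phloem, endodermis, dividing cells and leaf photosynthesis, only root hair (2 probe sets, EXPA7 and EXPA18) and leaf photosynthesis (1, RCA) had a named probe set, so the tissue label could be checked little. At 48 h the summed root hair signal was 44.5 to 148 at 1%, 146 to 168 at 4% and 95.1 to 221 at 8%, against 74.4 to 208 in air, and its part in the results was not tested. The RCA signal was 29.8 to 168 at 1%, 48.9 to 166 at 4% and 34.1 to 101 at 8%, against 28.3 to 107 in air. In whole roots, fewer cells of a type and less RNA per cell cannot be told apart.

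Within letter A the members were higher at 1% than in air by log2 differences of 0.61 to 1.25 (median 0.77), and within letter F by 0.60 to 1.49 (median 0.76). At 2 h their differences ran from -1.07 to 0.37, with 18 of 37 above 0 against 46% of the 7380 probe sets, and 4 members lay below -0.4 (BCAT4, AT3G53560, AT1G21440 and AT5G48940). In group means at 48 h, which also hold air array B, the differences were 0.19 to 1.21 with a median of 0.69, against a median of -0.05 over the 7380 probe sets. For 28 members both 1% arrays were above the air arrays of letters A and F, and for 21 they were above all 3 air arrays, which 4.72% of the 7380 probe sets were. Air array B was the highest of the air arrays for 22 members. The rule set 1% against air in letters A and F and not in B, and this favours a higher air array B. Just inside the threshold were AT5G27860 (0.79 in letter A and 0.60 in letter F), AT4G02010 (0.61 and 0.61) and AT1G09620 (0.61 and 0.61), and just outside it AT5G49560 (0.598 and 0.80), IYO (1.24 and 0.595) and AT2G47690 (0.59 and 0.73). Over the 7380 probe sets the differences of the letters A and F correlated with r = 0.121, across probe sets that share arrays and are not independent. In the other direction, 111 probe sets were lower by 0.6 or more in both letters with a 2 h difference above -0.4.

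**Figure D1:**
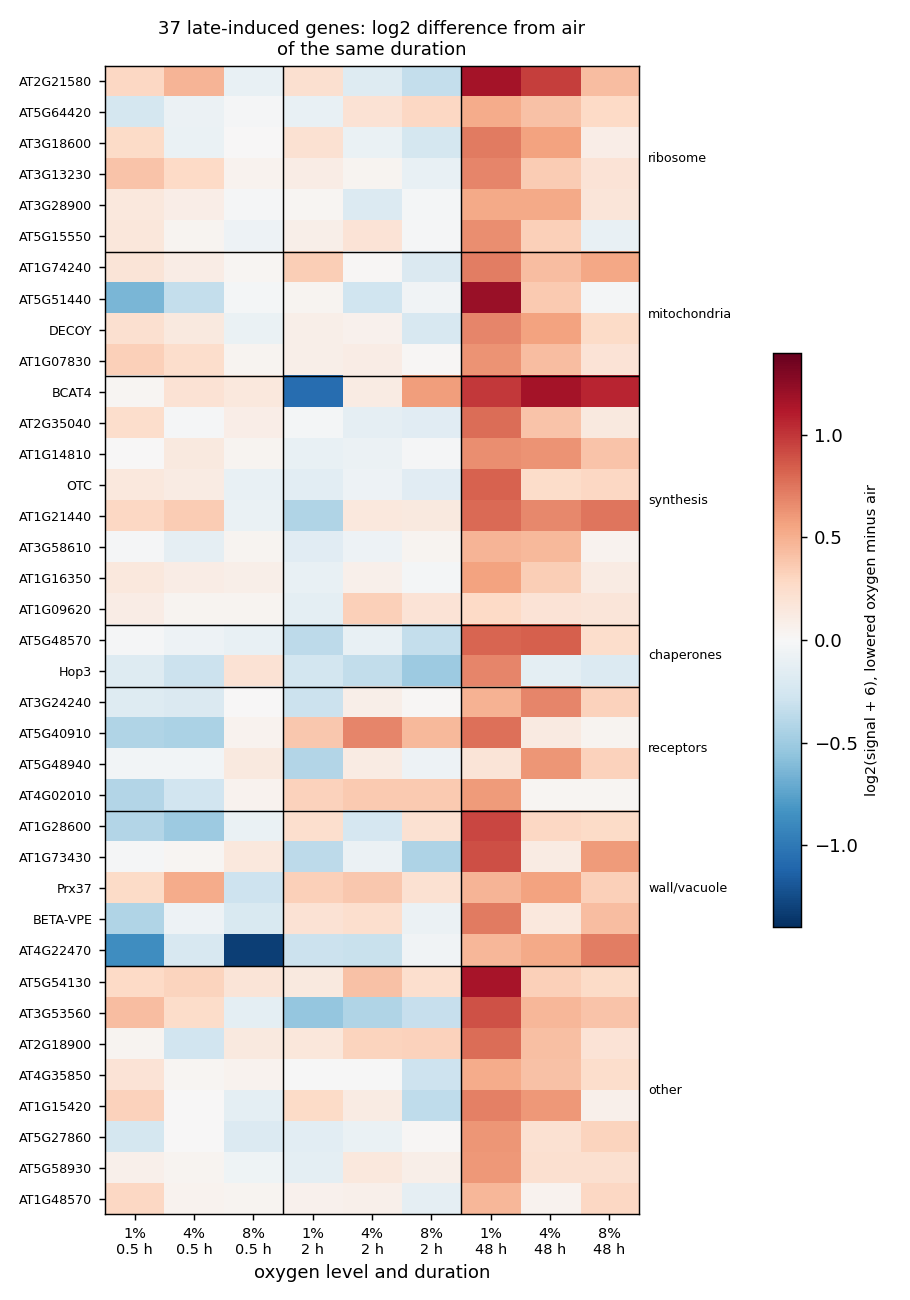
Log2 difference of group means between each lowered oxygen level and air of the same duration for the 37 members, in rows grouped by role (colour scale in log2 units, red higher than air). The 1% column at 48 h is red throughout because it chose the members. At 48 h, 36 of 37 members were above air at 4% and 34 of 37 at 8%, where 47% and 50.3% of the 7380 probe sets were, all against the same air arrays.

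The members for ribosomes were 2 genes of ribosomal proteins and 4 of ribosome assembly. AT2G21580, a ribosomal protein S25 of the small subunit, had signals of 373 and 841 at 1%, 449.8 and 533 at 4% and 239, 296 and 534 at 8%, against 185, 215 and 376 in air. Its letter F arrays were brighter than those of letters A and B at 1%, at 8% and in air, and the 1% and 8% arrays overlapped with air, while within each letter air was lowest. AT3G18600, a DEAD-box RNA helicase of ribosome assembly, had signals of 316 and 244 at 1%, 288 and 212 at 4% and 213, 203 and 127 at 8%, against 162, 179 and 157 in air. Here both 1% arrays and both 4% arrays were above all 3 air arrays, and the 8% arrays lay on either side of them. AT5G15550, the Arabidopsis WDR12 protein of the complex that processes the large subunit's RNA, had signals of 258 and 193 at 1%, 184 and 169.7 at 4% and 151, 123 and 117 at 8%, against 159.9, 149 and 114 in air, with both 1% and both 4% arrays above all the arrays of 8% and air.

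The other members of the group were AT3G28900, a ribosomal protein L34 of the large subunit, AT3G13230, a KH-domain RNA-binding protein, and AT5G64420, of a DNA polymerase V family known in yeast for a role in ribosomal RNA synthesis. AT3G13230 had signals of 361 and 302 at 1%, 272 and 249 at 4% and 233, 298 and 179.9 at 8%, against 229, 220.5 and 166 in air, and its 1% arrays were above all others. AT3G28900 and AT5G64420 overlapped between 1% and air, with air array B above a 1% array, and had within-letter differences of 0.80 (A) and 0.63 (F), and of 0.75 (A) and 0.97 (F). A list of 24 ribosome assembly factors, drawn up after the members were known, had 10 named genes, of which 4 are members. Of these 10, 8 had a 1% mean above air at 48 h and 5 at 2 h, with medians of 0.55 and -0.01, and without the members the medians were 0.28 and -0.24. The rule chose the 4 members on these differences, so the counts and medians that include them are a description only. At 48 h 0 of the 6 that are not members passed by limma in either direction, where 0.074% of all probe sets passed as higher and 0.0222% as lower. At an unadjusted p under 0.05, 2 of these 6 were higher and 0 lower, where 1.29% of all probe sets were higher and 3.92% lower. The partners of WDR12 missed the threshold in 1 letter each, AT5G14520 (pescadillo) with 0.64 in letter A and 0.48 in letter F, and AT2G40360 (BOP1) with 0.40 and 0.66, and they were looked up after the values were seen.

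Mitochondrial proteins were encoded by 4 members. DECOY (AT1G14620) and AT1G07830 encode proteins of the mitochondrial ribosome's L46 and L29 families. DECOY had signals of 342 and 307 at 1%, 334 and 268 at 4% and 226, 257 and 243 at 8%, against 197, 219 and 186 in air. Both 1% arrays and both 4% arrays were above all those of 8% and air, and the 8% arrays were above all air arrays. AT1G07830 had signals of 478 and 459 at 1%, 429 and 389 at 4% and 295, 392 and 353 at 8%, against 285, 336 and 285 in air, with the 1% arrays above all others and the lower 8% and air arrays overlapping. AT5G51440, a small heat shock protein of mitochondria, had the largest difference of group means (1.21), with signals of 62.3 and 92.1 at 1%, 27.7 and 55.5 at 4% and 40.8, 15.7 and 35.4 at 8%, against 32.9, 18.2 and 41.1 in air. Both 1% arrays were above all others, while the 4% and 8% arrays overlapped with air. AT1G74240, a mitochondrial carrier protein, was dim, at 46.5 and 51.7 at 1%, 34.4 and 44.2 at 4% and 35.7, 45.00 and 47.9 at 8%, against 16.1, 40.7 and 30.02 in air, with both 1% arrays above all those of 4% and air.

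Biosynthetic enzymes made up 8 members. BCAT4 (AT3G19710) encodes the aminotransferase that begins the chain elongation of methionine on the way to aliphatic glucosinolates. Its signals were 334 and 297 at 1%, 335 and 383 at 4% and 317, 338 and 347 at 8%, against 177, 169 and 127 in air. All 7 arrays of lowered oxygen were above all 3 air arrays, and the 3 lowered levels overlapped with each other. At 2 h the picture differed, with signals of 104 and 330.4 at 1% (E and F), 435 and 429 at 4% (D and F) and 708 and 507 at 8% (C and F), against 589, 214 and 495 in air (D, E and F). The array of letter E was the lower of its group at 1% and the lowest in air. BCAT4 had the lowest 2 h difference of the members, at -1.07.

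OTC (AT1G75330), ornithine carbamoyltransferase of arginine synthesis, had signals of 482 and 417 at 1%, 301 and 298 at 4% and 309, 301 and 313 at 8%, against 279, 258 and 218 in air. Its 1% arrays were above all others, its 4% and 8% arrays overlapped with each other, and all of these were above the air arrays. AT1G21440, of a family that holds phosphoenolpyruvate carboxylase-like and mutase-like enzymes, had signals of 439 and 238 at 1%, 279 and 311 at 4% and 358, 307 and 279.9 at 8%, against 237, 179 and 145 in air. As with BCAT4, all 7 arrays of lowered oxygen were above all air arrays, but its lower 1% array lay just above the highest air array. Among other lists, 4 genes of arginine and asparagine synthesis were named and OTC was the only member.

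Purine synthesis was represented by AT2G35040, which catalyses the last steps to inosine monophosphate, and AT1G16350, an inosine monophosphate dehydrogenase of guanine nucleotide synthesis. AT2G35040 had signals of 197 and 229.6 at 1%, 141 and 186 at 4% and 128, 140.0 and 132 at 8%, against 113, 141 and 111 in air. Its 1% arrays were highest, its 4% arrays lay between them and the 8% arrays, and air array B lay just above the 8% arrays. AT1G16350 had signals of 316 and 286 at 1%, 269 and 244 at 4% and 185, 249 and 223 at 8%, against 190.4, 242 and 176 in air, with 1% above all others and 8% overlapping both 4% and air. Of a list of 16 purine genes drawn up after the members were known, 5 were named and 4 of these had a 1% mean above air at 48 h, among them AT1G63660 (GMP synthase, 0.51) and AT1G79470 (another inosine monophosphate dehydrogenase, 0.62 but -0.05 within letter A), both chosen after their values were seen. The 4 also include the members AT2G35040 and AT1G16350, which the rule chose as higher at 1%. By limma 0 of the 3 that are not members passed between 1% and air at 48 h, also at an unadjusted p under 0.05.

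AT1G14810, aspartate semialdehyde dehydrogenase of the pathway to lysine, threonine and methionine, had signals of 463 and 479 at 1%, 536 and 399 at 4% and 305, 552 and 359 at 8%, against 277, 413 and 228 in air. Its 8% array of letter B was its highest at 48 h, so the 8% arrays spanned the 1% arrays. AT3G58610, ketol-acid reductoisomerase of valine and isoleucine synthesis and the brightest member, had signals of 1597 and 1526 at 1%, 1874 and 1272 at 4% and 1050.2, 1563 and 954 at 8%, against 932, 1607 and 942 in air. Its letter B arrays were bright at 4%, at 8% and in air, and air array B exceeded both 1% arrays. AT1G09620, a leucyl-tRNA synthetase, showed the same pattern, with 412 and 272 at 1% and 267, 441 and 176 in air. The list of branched-chain amino acid synthesis had 3 named genes, 1 of them a member, and the list of the aspartate family 2, also with 1 member. By limma 0 of their 3 genes that are not members passed between 1% and air, also at an unadjusted p under 0.05.

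Chaperones were dim members. AT5G48570, an immunophilin of the FKBP family that takes part in heat tolerance, had signals of 26.8 and 33.99 at 1%, 32.1 and 29.3 at 4% and 20.3, 25.3 and 11.9 at 8%, against 14.1, 18.4 and 11.7 in air. Its 1% and 4% arrays were above all arrays of 8% and air. Hop3 (AT4G12400), which links the chaperones HSP70 and HSP90, had signals of 69.5 and 57.5 at 1%, 28.2 and 38.6 at 4% and 51.8, 31.5 and 18.4 at 8%, against 36.7, 42.3 and 32.5 in air, with both 1% arrays above all others and the 4% and 8% arrays overlapping with air. The list of heat shock proteins and factors had 7 named genes, of which AT5G48570 and AT5G51440 are members. The 5 that are not members had a median difference of -0.26. By limma 0 of them passed between 1% and air, also at an unadjusted p under 0.05. AT1G52560, ATHSP22.0, AT1G53540 and AT5G37670 among them had mean signals of 6.1, 10.3, 13.3 and 15.5. Being under the limit of 25, they could not be members. AT1G53540 reached 0.69 in letter A and 1.45 in letter F and was left out by its mean signal.

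Receptors and kinases were 4 members. AT3G24240 and AT5G48940 are leucine-rich repeat receptor kinases that perceive root meristem growth factor peptides, which keep the root's stem cell zone active. AT3G24240 had signals of 108 and 179.8 at 1%, 204 and 126 at 4% and 93.3, 156 and 130.3 at 8%, against 59.9, 178 and 85.9 in air. AT5G48940 had signals of 82.6 and 75.3 at 1%, 169 and 69.1 at 4% and 72.5, 152 and 60.2 at 8%, against 48.1, 156 and 41.5 in air. In both, the letter B arrays were bright at 4%, at 8% and in air, and air array B was above the 1% array of letter A or above both. Of the 4 named genes of this receptor family, 2 are not members, and by limma 0 of these passed between 1% and air, also at an unadjusted p under 0.05. AT5G40910, an intracellular immune receptor of the TIR-NBS-LRR class, had 122 and 38.1 at 1% and 59.2, 44.3 and 20.1 in air, and AT4G02010, a receptor-like protein kinase, had 237 and 89.4 and 153, 97.8 and 56.5. For both, letter A was the brightest letter at 1%, at 8% and in air, and the groups overlapped.

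Genes of the wall, the vacuole, secretion and lipids were 5 members. Prx37 (AT4G08770), a peroxidase of the cell wall, had signals of 215 and 348 at 1%, 361 and 232 at 4% and 153, 334 and 296 at 8%, against 135, 283 and 192 in air, with letter A lowest at each level it was used for. BETA-VPE (AT1G62710), a vacuolar processing enzyme that matures vacuolar proteins, had signals of 92.8 and 49.1 at 1%, 49.1 and 37.9 at 4% and 69.5, 53.9 and 41.2 at 8%, against 52.1, 38.8 and 27.6 in air, with 1% overlapping both 8% and air. AT1G28600, of the GDSL lipase family, had signals of 71.8 and 134 at 1%, 65.7 and 55.7 at 4% and 47.4, 72.02 and 62.8 at 8%, against 29.5, 55.4 and 68.6 in air, with both 1% arrays above all air arrays and the 4% and 8% arrays overlapping with air. AT4G22470, of the lipid transfer protein family, varied most between letters at 1%, with 12.2 and 93.3 at 1% and 5.09, 35.9 and 56.7 in air, a ratio of the 2 arrays at 1% of 7.66. Its 5.09 on air array A was below 6.17, the 20% quantile of all values, so its letter A difference rests on very dim signals. Its mean signal of 38.6 was raised by bright arrays such as 238 in air for 0.5 h (F). AT1G73430, a subunit of the COG complex of Golgi traffic, had 89.1 and 39.99 at 1% and 53.2, 28.8 and 15.7 in air.

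The remaining 8 members had other or undescribed roles. AT5G54130, of a calcium-binding endonuclease and phosphatase family, had signals of 185 and 73.3 at 1%, 78.6 and 50.99 at 4% and 86.3, 62.7 and 40.03 at 8%, against 86.3, 44.2 and 30.2 in air, with air array A above the 1% array of letter F. It was the only member to reach 1.0 in both letters. It was also the only one with a second probe set, which showed 0.69 in letter A and 1.16 in letter F but 0.51 at 2 h, with signals of 74.0 and 37.5 at 1% and 43.4 and 13.4 in air (A and F). AT1G15420 had signals of 225 and 147 at 1%, 197 and 146 at 4% and 117, 120.2 and 107 at 8%, against 116, 121 and 92.6 in air, and both its 1% and its 4% arrays were above all those of 8% and air. AT3G53560, a protein with tetratricopeptide-like repeats, and AT2G18900, a WD40 repeat protein, had the largest within-letter differences of letter F, at 1.24 and 1.49. AT3G53560 had signals of 70.1 and 64.2 at 1%, 44.95 and 51.7 at 4% and 55.5, 40.96 and 42.96 at 8%, against 34.2, 45.1 and 23.7 in air. AT2G18900 had signals of 75.7 and 62.6 at 1%, 66.7 and 40.9 at 4% and 42.4, 54.8 and 36.2 at 8%, against 46.9, 58.3 and 18.4 in air. In both, the 1% arrays were above air, and air array B was the highest air array. AT4G35850, a pentatricopeptide repeat protein, had 307 and 209 at 1% and 167, 285 and 113 in air, again with air array B high. The others, AT5G58930, AT1G48570 and AT5G27860, had within-letter differences of 0.60 to 0.79.

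**Figure D2:**
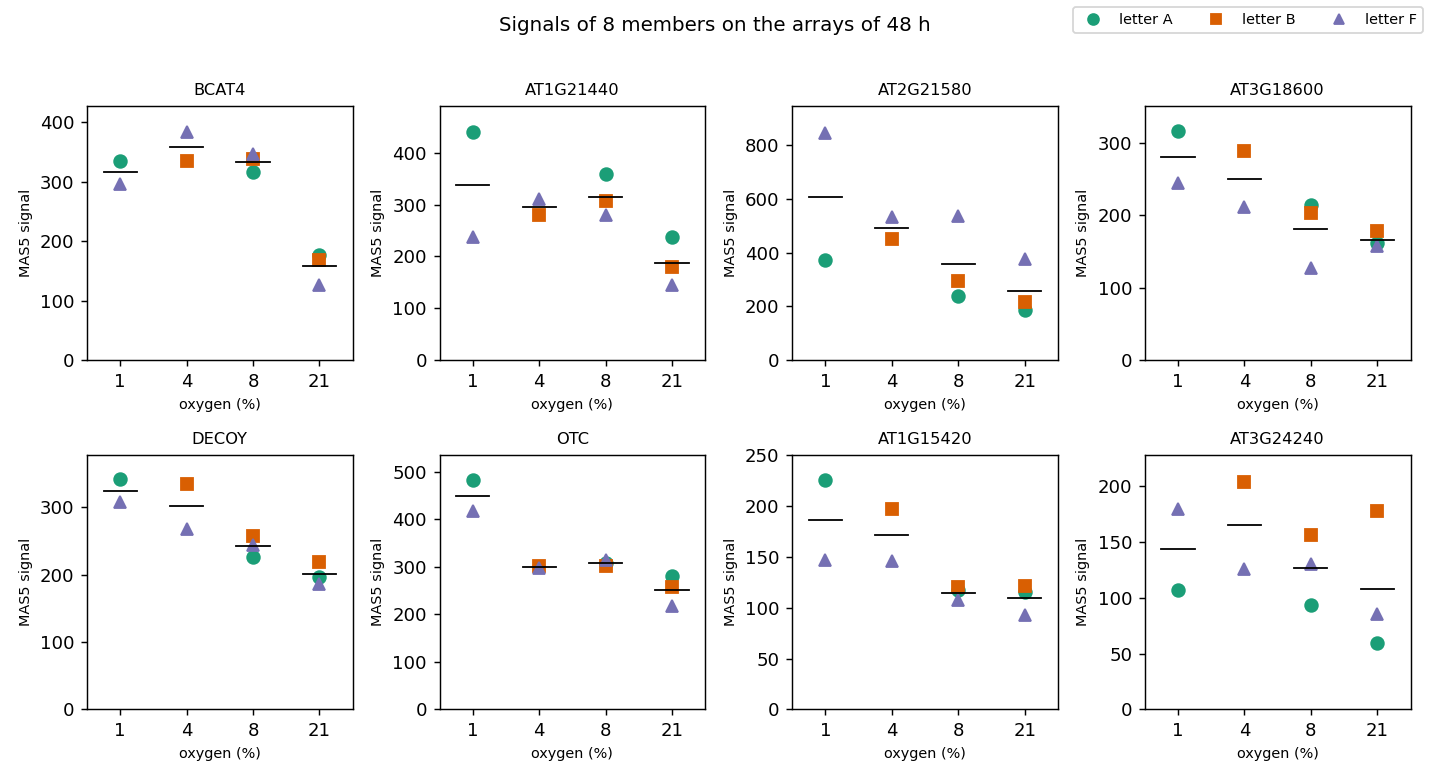
MAS5 signals (linear scale from 0) of 8 members on the 10 arrays of 48 h against oxygen level (%), with replicate letters as symbols and the group mean as a bar. BCAT4 and AT1G21440 were above air at all 3 lowered levels, while AT3G18600, AT1G15420 and DECOY were highest at 1% and 4%, and OTC was highest at 1%.

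The members differed among themselves at 4% and 8%. In group means at 48 h, 22 members followed the order of oxygen, with the difference from air largest at 1%, smaller at 4% and smallest at 8%. For 8 members the 8% difference lay between those of 1% and 4% or equalled that of 4%, and for 7 the 4% difference was as large as that of 1% or larger. The differences of 4% from air had a median of 0.41 and those of 8% a median of 0.27, with -0.02 and 0.00142 over the 7380 probe sets. All 3 levels were set against the same air arrays, which chose the members, so these values are a description only. All arrays were above all air arrays for 14 members at 4%, where 5.18% of the 7380 probe sets were, and for 4 at 8%, where 1.02% were. Those 4 were BCAT4, AT1G21440, DECOY and OTC.

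Replicate letter B gave a comparison with an air array that the rule used only in the mean signal. Its 4% array was above its air array in 31 of 37 members, against 46.8% of the 7380 probe sets, with a median difference of 0.30 against -0.02. It was above by 0.6 or more in 7 members, against 3.13% of the probe sets. These were AT2G21580 (1.04), BCAT4 (0.96), AT5G54130 (0.75), AT1G15420 (0.68), AT3G18600 (0.67), AT5G48570 (0.64) and AT1G21440 (0.62). The 8% array was above air in 20 of 37 members, against 50.3% of the probe sets, which is near the background, with a median of 0.09. This 8% array is the one that is also called a control in its treatment text. Only BCAT4 (0.98) and AT1G21440 (0.76) were above by 0.6 or more at 8%, where 2.97% of the probe sets were. These pairs are single arrays and carry no test.

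By role, all 6 ribosome members were above air at 4% in letter B and 3 of 6 at 8%, with medians of 0.30 and 0.02. The biosynthetic members were above in 7 of 8 at 4% and 5 of 8 at 8%. Counts by role rest on the same single pairs of arrays, with the shares of probe sets given above. At 8% the 3 of 6 and the 5 of 8 are near that share, and the 8% array is the one also called a control. All 4 receptors and kinases were above air at 4% (0.11 to 0.31) and below it at 8% (-0.50 to -0.03). The members of wall, vacuole, secretion and lipids were above air in 4 of 5 at 4% and 5 of 5 at 8%. Both 1% arrays were above air array B in 25 of 37 members, against 21% of the 7380 probe sets, a comparison that shares the 1% arrays with the rule.

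In letters whose air array chose the members, 4% was above air in 35 of 37 members in letter F (median 0.50, against 51.2% of the 7380 probe sets). There 8% was above air in 34 of 37 in letter A (median 0.27, against 54.1%) and in 33 of 37 in letter F (median 0.42, against 50.3%). The medians of both levels were thus larger against those air arrays than against air array B. In the fit across all arrays, with air array B as a group of its own that is assumed to vary like the others, 0 members passed at 4% and 0 at 8% by limma. Over all 13513 probe sets, 0.0592% passed as higher and 0.422% as lower at 4%, and 0.0666% and 0.696% at 8%. At an unadjusted p under 0.05, 1 member (DECOY, 0.44 ± 0.209 (SE), adjusted p = 0.716) was higher at 4%, and 0 were at 8%. The shares of all probe sets at that p were 1.25% higher and 5.7% lower at 4%, and 1.15% and 7.84% at 8%. The members' medians in this fit were 0.12 at 4% and -0.01 at 8%, where all probe sets had medians of -0.15 at both levels. With each array centred on its median they were 0.31 and 0.18, against 0.04 and 0.03 over all probe sets. In the fit that blocks on the letter they were 0.23 and 0.07, against -0.02 and -0.000874.

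**Figure D3:**
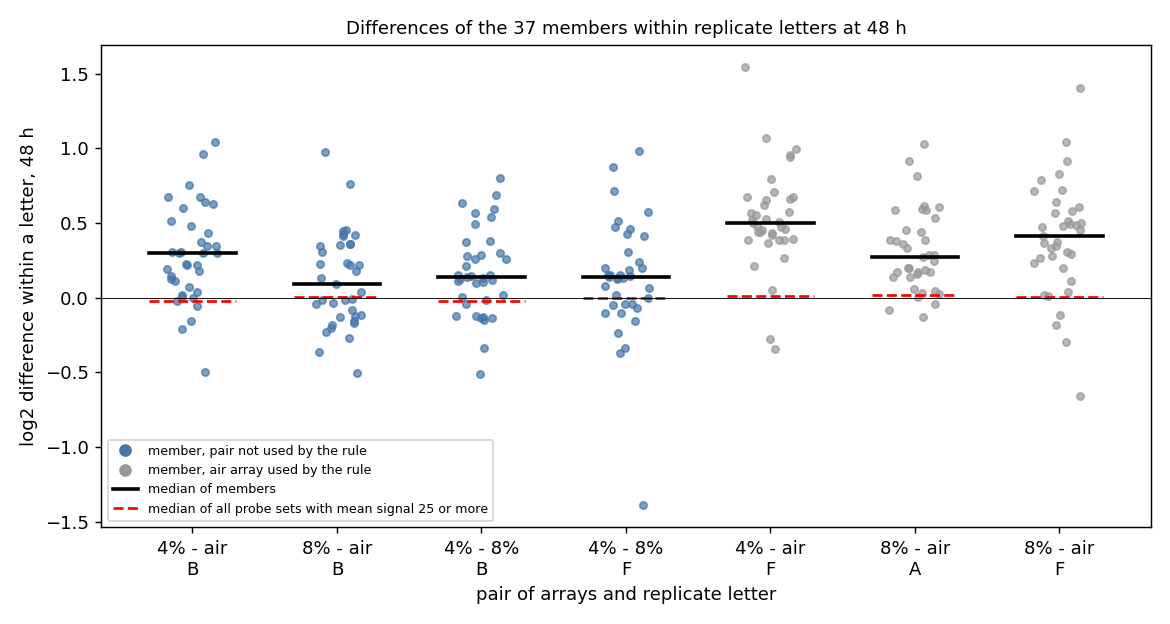
Log2 differences of the 37 members between pairs of arrays with the same replicate letter at 48 h. Points are members, blue where the rule used neither array beyond the mean signal and grey where it used the air array. The members' median is a black bar and the median of the 7380 probe sets a dashed red line. The median at letter B was 0.30 for 4% and 0.09 for 8%.

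Between 4% and 8% at 48 h, which the rule did not use, 28 of 37 members had the higher mean at 4%, against 47% of the 7380 probe sets, with a median difference of 0.16 against -0.02. Within letters, 4% was above 8% in 27 of 37 members in letter B (against 47.1% of the probe sets) and 25 of 37 in letter F (against 49.8%), both with a median of 0.14. It was above in both letters in 19 of 37, against 24.6% of the probe sets. The 8% array of letter B is the one also called a control in its treatment text. The 8% group held arrays of letters A and F, and the 4% group only of F. Such arrays deviated together with the air arrays that chose the members, so the group difference is not independent of the rule. By limma 0 members passed in either direction, where 0.0148% of all probe sets passed as higher and 0% as lower, and 1 member was higher and 0 lower at an unadjusted p under 0.05, as 1.67% and 0.725% of all probe sets were. That member was AT1G15420, with a difference of 0.54 ± 0.234 (SE, adjusted p = 1.00). As its signals above show, both 4% arrays were above all 3 of 8%. The next were AT5G15550 with 0.43 ± 0.213, DECOY with 0.30 ± 0.156, AT5G48570 with 0.58 ± 0.320 and AT3G18600 with 0.47 ± 0.263. After them came AT3G58610 with 0.41 ± 0.259, AT1G16350 with 0.23 ± 0.179 and AT2G21580 with 0.54 ± 0.436 (all SE). All arrays of 4% were above all of 8% in 5 members, which were AT1G15420, AT5G15550, DECOY, AT5G48570 and AT2G35040, against 3.16% of the 7380 probe sets. All 6 ribosome members had the higher mean at 4% (median 0.40), and 2 of 5 members of wall, vacuole, secretion and lipids did (median -0.19).

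Levels over time were followed by setting 48 h against 0.5 h at the same oxygen level. At 8%, at 4% and on air array B, the rule used the arrays only in the mean signal. The 8% arrays of letters A and F deviated together with the air arrays of these letters (r = 0.719 and 0.728). So did the 4% array of letter F (r = 0.643). Choosing members that were low on those air arrays can lower these arrays too, so the comparisons are not independent of the rule. Members were mostly lower after 48 h than after 0.5 h at 8%, at 4% and on air array B. At 8%, 28 of 37 were lower, with 9 above 0 against 48.1% of the 7380 probe sets, and the median was -0.34 against -0.02. At 4%, 12 were above 0 against 47.2%, with a median of -0.14 against -0.03. On air array B, 6 were above 0 against 54.4%, with a median of -0.26 against 0.07. At 1% and over all 3 air arrays, which the rule used, the medians were 0.06 (21 of 37 above 0, against 44.6%) and -0.52 (4 of 37 above 0, against 49.1%). These medians rest on the arrays that chose the members as high at 1% and low in air, so they are a description only.

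By limma 0 members passed between 48 h and 0.5 h at 8%, at 4% or on air array B. Of all probe sets, 0.925% passed as higher and 0.903% as lower at 8%, 0.266% and 0.266% at 4%, and 2.27% and 0.866% on air array B. At an unadjusted p under 0.05, 7 members were lower and 1 higher at 8%, 2 lower and 1 higher at 4%, and 5 lower on air array B. The shares of all probe sets at that p were 7.19% lower and 8.01% higher at 8%, 5.28% and 5.94% at 4%, and 4.89% and 16.4% on air array B. The smallest adjusted p was that of AT3G18600, with 213, 203 and 127 at 8% for 48 h and 384 and 319 for 0.5 h, a difference of -0.96 ± 0.263 (SE, adjusted p = 0.0664). All arrays of 48 h were below those of 0.5 h, and over 15 settings its adjusted p was 0.0259 to 0.326. At 4% for 48 h the same gene had 288 and 212, against 349.8 and 302 for 0.5 h, and in air 162, 179 and 157 against 365, 343 and 336. AT5G48570 had 20.3, 25.3 and 11.9 at 8% for 48 h, against 39.3 and 44.7 for 0.5 h. The limma difference was -0.97 ± 0.320 (SE, adjusted p = 0.124). At 48 h its group means were 30.4 at 1%, 30.7 at 4%, 19.1 at 8% and 14.8 in air. Its brighter arrays of 0.5 h helped it to reach the mean signal of 25, so that limit favoured its fall. AT5G27860 was the 1 member higher at an unadjusted p under 0.05, at 0.66 ± 0.245 (SE, adjusted p = 0.183).

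With the replicate letter as a block, the members' median at 4% was -0.26, and 3 of 37 members were called lower after 48 h than after 0.5 h, near the background of 6.8% of all probe sets. They were AT4G35850 (-0.74, adjusted p = 0.0138), AT1G73430 (-0.85, adjusted p = 0.0354) and AT1G14810 (-0.47, adjusted p = 0.0473). On air array B the block called 2 of 37 members lower, where 1.61% of all probe sets were. These were BCAT4 (-1.55, adjusted p = 0.0206) and AT2G21580 (-1.30, adjusted p = 0.0248), and the members' median was -0.49. BCAT4 had 169 on air array B, against 538, 586 and 239.6 in air for 0.5 h (C, F and G). AT2G21580 had 215 on air array B, against 456, 790.2 and 354. Both were below all 3 arrays of 0.5 h. Over all probe sets the block gave a median of -0.03 for air array B minus 0.5 h.

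**Figure D4:**
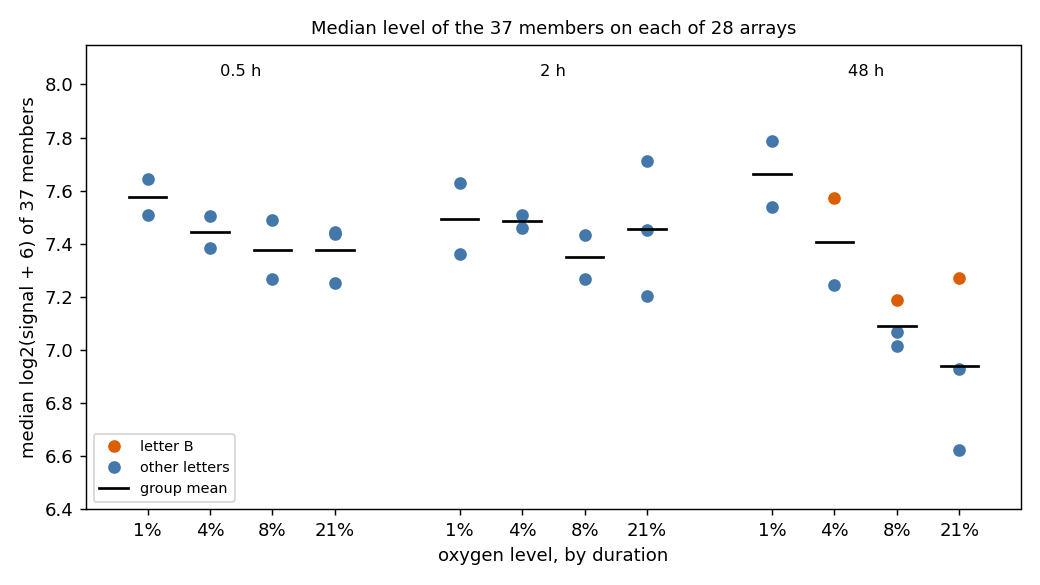
Median of log2(signal + 6) over the 37 members on each of the 28 arrays, by oxygen level and duration, with the arrays of letter B in orange and group means as bars. At 48 h the medians were 7.79 and 7.54 at 1%, 7.57 and 7.25 at 4%, and 7.07, 7.19 and 7.01 at 8%, against 6.93, 7.27 and 6.62 in air. The 48 h values at 1% and in air follow from the choice of members.

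After 0.5 h, on arrays that the rule used only in the mean signal, the members' median differences from air were 0.11 at 1%, 0.03 at 4% and 0.01 at 8%. There 23, 22 and 20 of 37 were above 0, against 49.5%, 48.5% and 50.3% of the 7380 probe sets. By limma 0 members passed at 1%, 4% or 8%, also at an unadjusted p under 0.05. Of all probe sets, 0.0518%, 0.0444% and 0.0148% passed as higher at these levels and 0% as lower, and at the unadjusted p 1.12%, 0.733% and 0.229% were higher and 0.636%, 0.703% and 0.326% lower. AT4G22470 gave the lowest difference, -1.32 ± 0.961 (SE) at 8%, where air array F had 238 and the other air arrays 16.8 and 14.7. At 2 h, 4% minus 8% had a median of 0.10 over the members against 0.03 over the 7380 probe sets. It was above 0 in 26 of 37 members, and in 28 of 37 at 48 h, where those medians were 0.16 and -0.02. By limma 0 passed, also at an unadjusted p under 0.05. Of all probe sets 0% passed, and 0.437% were higher and 0.296% lower at the unadjusted p. The change of that difference between 2 h and 48 h had a median of 0.07 over the members, against -0.06 over the 7380 probe sets. It was called by limma for 0 members, also at an unadjusted p under 0.05. Of all probe sets 0% were called, and 0.696% were higher and 0.37% lower at the unadjusted p.

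Of a list of 35 genes induced by low oxygen, 18 were named and 0 were members, which the limit on the 2 h difference fixed, since all 18 had differences of 2.31 or more at 2 h. At 48 h, 7 of these 18 were higher at 1% and 0 lower by limma, and at 2 h 17 of 18 were higher, where 0.34% of all probe sets were. The list of the glyoxylate cycle and fatty acid oxidation had 3 named genes and no member. Its gene ICL, which encodes isocitrate lyase, passed as higher at 48 h and had a 2 h difference of 0.70, above the limit for members. The list of amino acid breakdown had 14 named genes, of which 0 were members and 0 passed at 48 h by limma, with 0 higher and 2 lower of 14 at an unadjusted p under 0.05 (1.29% and 3.92% of all probe sets) and a median of -0.12. The list of autophagy and vacuolar proteolysis had 12 named genes and no member. Its gene ATG8H had a difference of -0.94 between 1% and air at 48 h, and the others ran from -0.20 (ALPHA-VPE) to 0.44 (ATG8E). BETA-VPE stood on no list, while its relatives ALPHA-VPE and GAMMA-VPE had differences of -0.20 and 0.16.

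The members' mean signals over all arrays ran from 33.7 (AT5G48570) to 1476 (AT3G58610), with a median of 171. They lay on all 5 chromosomes by their locus names, with 13 on chromosome 1, 3 on chromosome 2, 7 on chromosome 3, 5 on chromosome 4 and 9 on chromosome 5. No 2 members were next to each other in the gene order of the TAIR10.1 annotation, and the closest pair was 27 genes apart. In 6 members the 2 arrays at 1% for 48 h differed by 2-fold or more, and their levels thus varied between replicate letters as well.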

How the data were processed

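Arabidopsis roots were measured on 28 arrays. The deposited values are signal intensities that the authors made with MAS5, per the submitters' processing notes, with no version given. Of 22810 probe sets, 13513 named 1 gene in the platform annotation, while 503 named several, 64 were controls and 8730 had no name here. Of the named, 13436 matched the RefSeq gene table. Deposited signals were analysed as log2(signal + 6), which understates differences of dim genes. limma 3.58.1 in R 4.3.3 fitted 12 group means (16 residual degrees of freedom) with an intensity trend, or 13 with air array B of 48 h as its own group, and Benjamini-Hochberg adjustment ran over all 13513. A call is an adjusted p under 0.05. Fits were tested on simulated data. The members and gene lists were chosen with earlier results of these data known. Members named in the text were the 12 with the largest mean difference of letters A and F, the 8 with the smallest p between 4% and 8% at 48 h, those at the threshold and those on lists, and other names were chosen after values were seen. Same-letter arrays deviated together in 6 of 6 pairs at 0.5 h (r of 0.457 to 0.718) and 12 of 12 at 48 h (0.328 to 0.728). At 2 h they did in 5 of 8 (-0.117 to 0.689, with 0.1 as the limit). In groups of 2 arrays the deviations mirror each other, so these pairs are not separate observations. Some pairs of different letters were as high, such as 4% D with 8% C at 2 h (r = 0.669). The block with letters was run as an alternative. Other alternatives were quantile normalization, median centring, other pseudocounts, a filter on dim probe sets, no trend, and leaving out arrays. The order of members on chromosomes came from the RefSeq table (TAIR10.1), and no sequence was used here.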

Additional observations from a re-analysis of the deposited data

How the results depend on the processing

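The number of members was 22 with a pseudocount of 24 in the rule (21 shared), 1 with a threshold of 1.0 and 38 after quantile normalization (31 shared). Members called between 48 h and 0.5 h at 8% numbered 1 after quantile normalization (AT5G48570), 1 after median centring and 1 without the dimmest 40% of probe sets (AT3G18600 in both), and 2 with the letter as a random replicate block (AT4G35850 and AT3G18600). At 4% they numbered 3 with the fixed replicate block and 1 with the random one. On air array B they numbered 1 after quantile normalization, 1 after median centring, 2 with the fixed block and 2 with the random block, and the median was -0.49 with the fixed block. Median centring gave medians of 0.31 for 4% and 0.18 for 8% against air array B, and the fixed block 0.23 and 0.07. The medians of all probe sets also moved, from -0.15 at both levels to 0.04 and 0.03 with centring. With the fixed block they were -0.02 and -0.000874. For air array B minus 0.5 h, the median of all probe sets was 0.21 in the main fit and -0.03 with the fixed block. The cause of these changes was not tested. No other count of calls changed with the block. The main fits called 0 members in each tested comparison, so there was no called result that an alternative could reverse.

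Leaving out single arrays called 0 members by limma in each comparison. The medians were then 0.02 to 0.31 for 4% minus 8% at 48 h and -0.10 to 0.23 at 2 h, where the value below 0 came without the 8% array of letter F. Against air array B they were 0.00745 to 0.30 at 4% and -0.10 to 0.02 at 8%. At 0.5 h against air they were 0.01 to 0.19 at 1%, -0.05 to 0.16 at 4% and -0.06 to 0.06 at 8%. For 48 h minus 0.5 h they were -0.32 to -0.05 at 4%, -0.36 to -0.25 at 8% and -0.29 to -0.23 on air array B. Without the 3 arrays of letter B, an alternative chosen after seeing the data, 4% minus 8% at 48 h had a median of 0.08, and 48 h minus 0.5 h -0.32 at 4% and -0.36 at 8%, with 0 called by limma in each. With 2 or 3 arrays a group, small differences could not be resolved.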
